A study of Nematostella vectensis with 16 samples.

Results

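Copper was compared with no added metal in whole starlet sea anemones, Nematostella vectensis, by RNA sequencing. The comparison uses the 3 copper libraries and the 4 control libraries, chosen by their titles, which are 7 of the 16 libraries of the series, and it covers all 27273 gene models of the count table. Each copper (Cu) library came from a pool of 5 anemones held for 24 h in artificial seawater with CuCl2 at 100 µg/L, a concentration given as added. The control libraries came from untreated groups of anemones, for which the labels give neither the number of animals per group nor a holding time. All groups were 2 to 4 months old and had been raised in the dark at 18 °C and 12.5 ppt. Pools in HgCl2, CdCl2 or ZnCl2 at the same concentration and time (Hg, Cd and Zn, 3 libraries each) entered the same model and serve below to show where Cu differed. The labels do not give strain, sex, feeding or a batch, and each library is a pool, so differences between single animals were not measured.

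Copper is an essential metal, held in the active sites of enzymes such as cytochrome c oxidase and copper/zinc superoxide dismutase. In excess it is toxic, since it cycles between oxidation states, promotes reactive oxygen species and can displace other metals from proteins. Animal cells take it up through CTR1-type transporters, pass it between copper chaperones, pump it out with ATP7-type ATPases and bind the surplus with glutathione and metallothioneins. The anemone is a cnidarian of estuaries and salt marshes with a simple body wall of an outer and an inner cell layer, so that whole animals take up metal from the surrounding water. None of the gene identifiers in the table matched a gene of the reference annotation (0 of 38762 entries), so the data do not say which gene models encode these proteins. Changes are therefore described by identifier, level and number. RNA came from whole animals, in which fewer cells of a type and less RNA per cell cannot be told apart.

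Counts summed to between 5698389 and 7200099 per Cu library and to between 5517015 and 7643452 per control library. At least 1 count was found for 20046 to 20423 gene models in Cu libraries and for 20134 to 20415 in controls. After the filter on low counts 16276 genes were tested. Libraries of one group differed from each other in a shared set of genes. The first principal component of the deviations from group means held 24.8% of their variance and set Cu 3, control 1 and control 2 (with Hg 3, Cd 1 and Zn 3) apart from Cu 1, Cu 2, control 3 and control 4. The 100 genes that weighed most on its positive side summed to 964 CPM (counts scaled to library size) in Cu 3, 232 CPM in Cu 1 and 153 CPM in Cu 2. In controls 1 and 2 they summed to 971 and 799 CPM, and in controls 3 and 4 to 194 and 178 CPM. None of these 100 genes was called in Cu (0 by edgeR, 0 at an unadjusted p under 0.05, and 0 by DESeq2, which gave no adjusted p for 46 of them). Over all tested genes edgeR called 4.2%, and 16.4% had an unadjusted p under 0.05. The 100 genes were picked for their spread within groups, which itself hinders a call, so nothing is read from their lack of calls. This split crosses both groups, and counts of calls are given below with and without these libraries.

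More genes were called higher than lower in Cu pools, an order that turned where controls 1 and 2 were both left out. Of the genes tested, 488 (3%) were higher in Cu pools and 195 (1.2%) were lower by edgeR's quasi-likelihood test after Benjamini-Hochberg adjustment at a threshold of 0.05. Together these are 4.2% of the tested genes, and 2663 genes (16.4%) had a p under 0.05 before adjustment. Most changes were small. Among genes that rose, 188 changed by less than 1.5-fold, 163 by 1.5 to 2-fold, 111 by 2 to 4-fold, 17 by 4 to 8-fold and 9 by 8-fold or more. Among genes that fell the same classes held 59, 84, 44, 7 and 1. The lower and upper quartiles of the log2 fold change were 0.49 and 1.07 for genes that rose and -1.01 and -0.55 for genes that fell. The median over all tested genes was -0.02, and 46.6% of them had a fold change above 0. In 482 of the 488 genes that rose every Cu library lay above every control, and in 185 of the 195 that fell every Cu library lay below every control. Over all tested genes such full separation was seen in 8.02% upward and 6.86% downward. The calls used the same Cu and control libraries, so nothing is read from the higher shares among called genes.

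**Figure D1:**
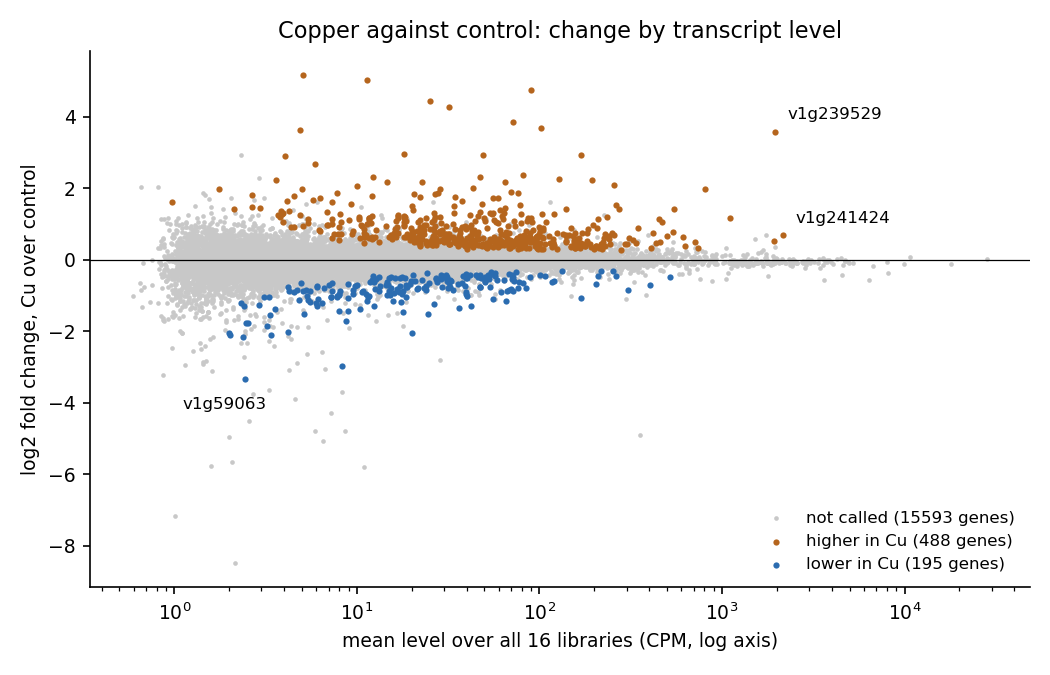
Log2 fold change of Cu over control (vertical axis) against the mean level over all 16 libraries in CPM (log axis), 1 point per tested gene. The 488 genes called higher reach further from 0 than the 195 called lower, v1g239529 stands alone at high level, and the points furthest below 0 were not called.

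The number of genes that rose was steadier than the number that fell. With the 6 libraries on the positive side of the first component left out, 413 genes rose and 488 fell, so that more fell than rose. With controls 1 and 2 as the sole controls 304 rose and 26 fell, and with controls 3 and 4 as the sole controls 543 rose and 606 fell (edgeR), again more that fell. Leaving out single libraries gave 304 to 512 genes that rose. It gave 52 that fell without Cu 2, 69 without Cu 1, 75 without Cu 3, 64 without control 3, 73 without control 4, 274 without control 1 and 296 without control 2. The genes that fell also differed among the controls. Their median deviation from the control mean was 0.17 in control 3, 0.16 in control 4, -0.15 in control 1 and -0.17 in control 2, on the log2 CPM scale. For the genes that rose the same medians lay between -0.02 and 0.04. In the Cu pools the genes that rose had median deviations of 0.62, 0.72 and 0.69 in Cu 1, Cu 2 and Cu 3, and the genes that fell had -0.70, -0.69 and -0.73. These genes were called from the same libraries, so the medians describe how evenly the 3 pools shared the change.

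Calls made without one Cu pool were then read in that pool. Of 341 genes called higher without Cu 1, 97.4% lay above all 4 controls in Cu 1. The share was 97.4% of 304 genes for Cu 2 and 97.6% of 329 genes for Cu 3. Uncalled genes did so in 19.6%, 22.2% and 19.5%. Of the genes called lower, 87% of 69, 90.4% of 52 and 80% of 75 lay below all controls in the pool left out, against 23%, 25.4% and 21.7% of uncalled genes. The median difference of the left-out pool from the control mean was 0.66, 0.84 and 0.74 log2 units for genes called higher and -0.64, -0.69 and -0.47 for genes called lower. The same 4 controls served the calls and the reading, so the shares are not independent of the control values.

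Genes that rose were found mainly among well-covered transcripts. When the tested genes were divided into 5 equal parts by mean CPM, 0.184% of the lowest part rose, and the next parts gave 1.23%, 1.6%, 4.09% and, in the highest part (from 42.5 CPM upward), 7.9%. The shares that fell were 0.399%, 1.04%, 1.44%, 1.57% and 1.54%. Precision changed along the same order. The median standard error of a log2 fold change was 0.40 in the lowest part and 0.11 in the highest, and the median change among called genes that rose was 1.55 in the lowest part and 0.58 in the highest. CPM is not corrected for transcript length, so the order is by reads and not by transcript number.

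**Figure D2:**
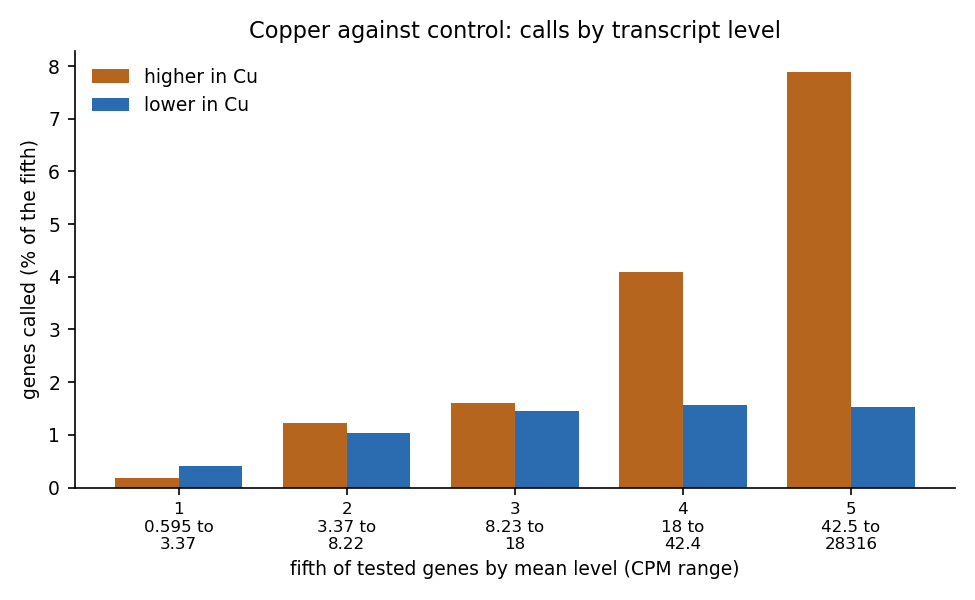
Percent of genes called higher and called lower in Cu (bars) in each of 5 equal parts of the tested genes by mean CPM, whose range stands under each part. The share that rose climbs from 0.184% to 7.9%, while the share that fell stays between 0.399% and 1.57%.

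The genes that rose held a larger share of the counts in Cu libraries than in controls. Their counts made up 5.37%, 5.87% and 5.46% of all counts in Cu 1, Cu 2 and Cu 3. In controls 1 to 4 they made up 2.94%, 3.2%, 3.32% and 3.28%. The genes that fell made up 0.625%, 0.625% and 0.585% of the Cu libraries and 0.797%, 0.869%, 1.08% and 1.1% of the controls. The groups did not overlap in either share, which follows from how the genes were called. The gain was concentrated in few genes. The mean CPM of the 488 genes exceeded control by 23911 in sum, of which 1 gene gave 12.8%, the first 10 gave 38.7% and the first 50 gave 60.1%. The loss of the 195 genes summed to -3483 CPM, of which the first gene gave 5.59% and the first 10 gave 31.2%.

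**Figure D3:**
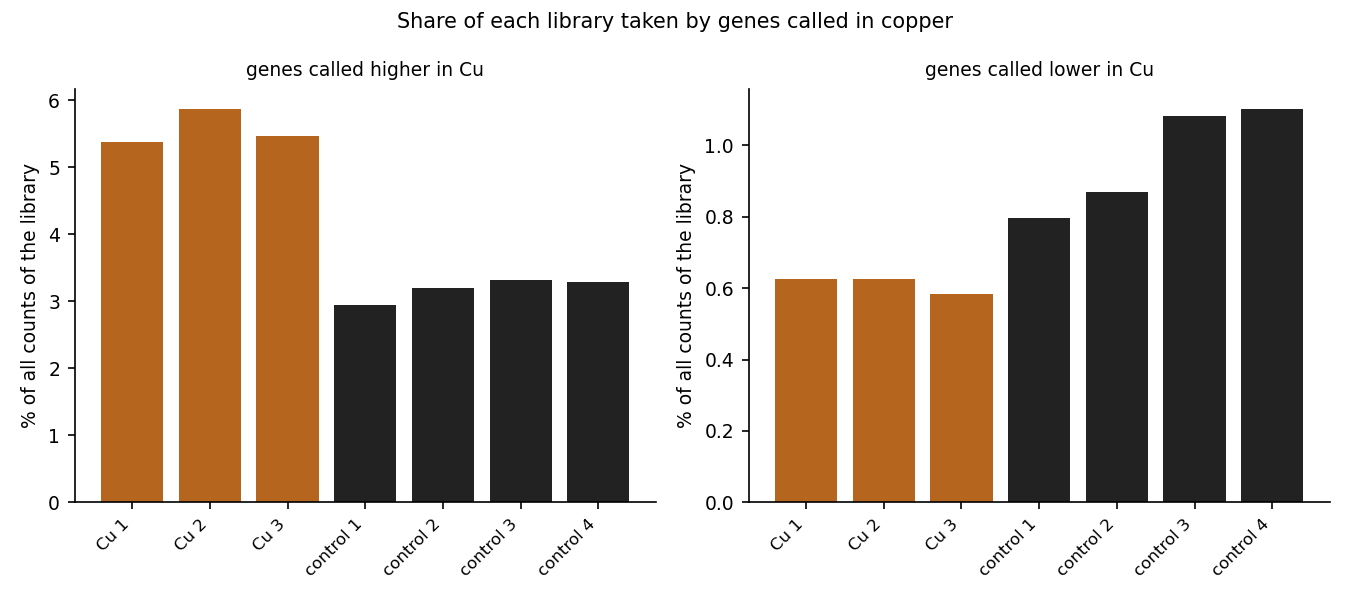
Percent of all counts of each Cu and control library (bars) taken by the 488 genes called higher (left) and the 195 called lower (right) in Cu. Cu libraries lie between 5.37% and 5.87% against 2.94% to 3.32% in controls on the left, and between 0.585% and 0.625% against 0.797% to 1.1% on the right.

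Among called genes with full separation, the largest gain in CPM was that of v1g239529. It had 2815, 3561 and 3642 CPM in Cu 1, Cu 2 and Cu 3, against 294, 267, 287 and 271 CPM in controls 1 to 4. Every Cu pool lay far above every control, and the 4 controls lay close together. The change was 11.9-fold (edgeR adjusted p = 2.93e-12), or 3.58 ± 0.12 log2 units (SE). The call held in all 16 alternative settings, with log2 fold changes from 3.51 to 3.69. Its mean was 284 ± 15.1 CPM in Cd, 273 ± 9.16 CPM in Zn and 6196 ± 957 CPM in Hg (SD, n = 3 each). By the direct contrasts Cu lay below Hg by a log2 difference of -0.89 ± 0.12 (SE; edgeR adjusted p = 4.39e-05), and above Cd by 3.55 and above Zn by 3.61.

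The second largest gain among these genes was that of v1g241424, an abundant transcript in every group. It had 3897, 2721 and 3758 CPM in the Cu pools, against 2258, 1523, 2539 and 2280 CPM in controls 1 to 4. The groups did not overlap, and Cu 2 lay only a little above control 3. The log2 fold change was 0.69 ± 0.17 (SE; edgeR adjusted p = 0.0272). The call was lost without Cu 1, without Cu 3 and without control 4, where adjusted p was 0.125, 0.112 and 0.0556 (edgeR). It was also lost in a fit of Cu and control alone (0.0836) and with controls 3 and 4 as the sole controls (0.0714). Without the libraries on the positive side of the first component the log2 fold change was 0.48, with an adjusted p of 0.251 (edgeR).

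Among called genes with full separation, the pair with the largest loss in CPM changed less. v1g177729 had 371, 231 and 316 CPM in the Cu pools, against 560, 470, 464 and 509 CPM in controls 1 to 4. All Cu pools lay below all controls, and Cu 2 was the lowest. The log2 fold change was -0.71 ± 0.18 (SE; edgeR adjusted p = 0.0314). v1g182198 had 458, 478 and 362 CPM in the Cu pools, against 614, 642, 651 and 523 CPM in controls 1 to 4. Its log2 fold change was -0.49 ± 0.13 (SE; edgeR adjusted p = 0.0463). Neither call was firm, since 5 of 7 single-library omissions ended the call of v1g177729 and 6 of 7 that of v1g182198, with log2 fold changes between -0.87 and -0.38. In the Hg pools both genes were lower still, with 171 ± 30.7 CPM for v1g177729 and 271 ± 43.6 CPM for v1g182198 (SD, n = 3 each). Cu lay above Hg in both (log2 differences 0.84 and 0.67, edgeR adjusted p = 0.00582 and 0.00323).

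**Figure D4:**
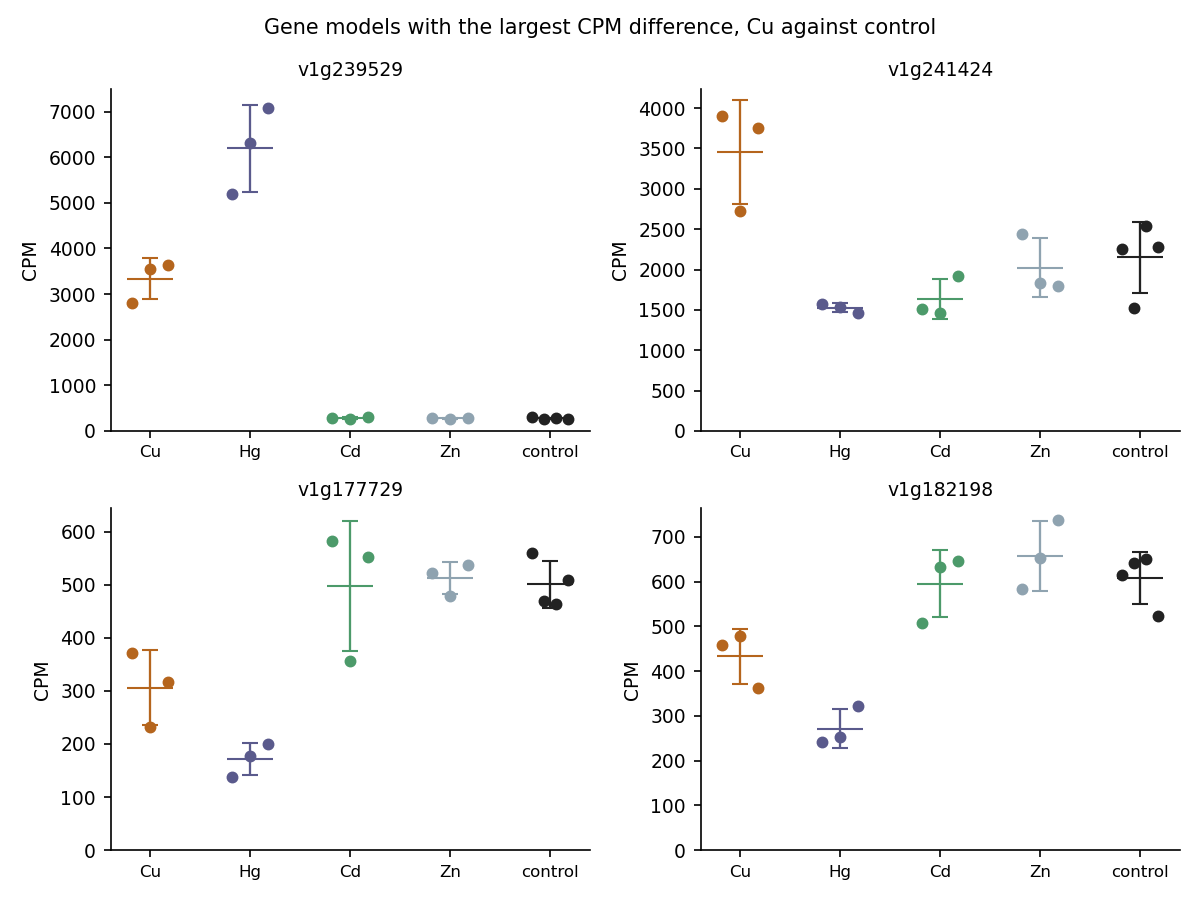
CPM in every library (points), with mean and SD (bars) for Cu, Hg, Cd, Zn and control. Shown are the 2 genes with the largest gain and the 2 with the largest loss of CPM in Cu, among called genes with full separation. v1g239529 is high in Cu and higher in Hg, v1g241424 is highest in Cu, and v1g177729 and v1g182198 lie lower in Cu than in control and lowest in Hg.

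The called genes with large increases mostly started from low levels. The 26 genes that rose at least 4-fold had a median of 4.56 CPM in controls and 45.2 CPM in Cu. The median control level was 12.1 CPM over all tested genes and 30.1 CPM over the 488 genes that rose. Standard errors were larger at low levels, where mainly large changes could be called, so picking called genes by fold favours low starting levels. Of these 26, 4 had a control mean under 1 CPM, 13 had 1 to 10 CPM, 8 had 10 to 100 CPM and 1, v1g239529, had more. All 3 pools took part in these changes. In Cu 1 all 26 genes lay at least 2-fold above the control mean, in Cu 2 all 26 and in Cu 3 25, and 21, 24 and 23 of them lay at least 4-fold above it. By direct contrasts with the same Cu libraries 26 of the 26 were higher in Cu than in Zn and 24 higher than in Cd, while 19 were lower in Cu than in Hg (edgeR). Over all tested genes these calls covered 2.82%, 2.16% and 9.87%. The 26 were chosen for high values in the same Cu libraries, so nothing is read from the counts against Zn and Cd.

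A test for changes beyond 1.5-fold found 84 genes that rose (0.516% of those tested) and 5 that fell (0.0307%; edgeR glmTreat, the same adjustment). Beyond 2-fold it found 32 that rose (0.197%) and 1 that fell (0.00614%). The 5 genes that fell were v1g59063, v1g99318, v1g245598, v1g211167 and v1g241233. v1g59063 had 1, 3 and 2 counts in the Cu pools and 30, 14, 17 and 24 counts in controls 1 to 4, and was the gene that fell beyond 2-fold (adjusted p = 0.00731 in that test). v1g99318 had 11, 8 and 9 counts in the Cu pools and 39, 35, 36 and 41 counts in controls. In CPM this was 1.87, 1.36 and 1.3 in the Cu pools against 5.65, 5.63, 6.34 and 7.07 in controls, so the groups lay well apart. Its log2 fold change was -2.02 ± 0.26 (SE; edgeR adjusted p = 0.000115). v1g245598 had 3.06, 3.92 and 3.62 CPM in the Cu pools against 9.41, 11.3, 13.6 and 12.4 CPM in controls (log2 fold change -1.71 ± 0.28 SE, edgeR adjusted p = 0.000995). v1g211167 and v1g241233 each had 3 to 5 counts in every Cu pool, against 12 to 17 and 11 to 32 counts per control. In Hg pools v1g245598 stood at 4.35 ± 1.64 CPM and v1g211167 at 0.549 ± 0.305 CPM (SD, n = 3 each), and neither was called between Cu and Hg (edgeR adjusted p = 0.558 and 0.922, with log2 differences of -0.32 ± 0.31 and 0.12 ± 0.47 SE). v1g241233 was lower in Cu pools, at 0.704 ± 0.137 CPM, than in Hg pools, at 2.08 ± 0.366 CPM (SD, n = 3 each; log2 difference -1.54 ± 0.45 SE, edgeR adjusted p = 0.0263). The log2 differences of Cu from Hg were -1.03 ± 0.57 for v1g59063 and -0.75 ± 0.30 for v1g99318, and neither was called (SE; edgeR adjusted p = 0.297 and 0.107).

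The largest fitted decreases were not called. Of the uncalled genes 20 had a fitted decrease of at least 8-fold and 0 an increase of that size. In 18 of these 20 a single control library held more than all other controls together. The exceptions were v1g218972 and v1g206519, in which every Cu pool lay below every control. They missed the threshold narrowly (edgeR adjusted p = 0.0513 and 0.0564). The control with the most counts was control 3 in 17 of the 20 and control 1 in 3. In 16 of the 20, controls 3 and 4 together held over 90% of the control counts. Among the 52 genes called at least 2-fold lower this was so in 0. Such a spread among the controls itself hinders a call, so nothing is read from the difference between these 2 sets. The most abundant of the 20, singled out after its values were seen, was v1g205229. It had 3.23, 102 and 1.88 CPM in Cu 1, Cu 2 and Cu 3, against 16.1, 1.29, 3416 and 822 CPM in controls 1 to 4. The groups overlapped, with Cu 2 above 2 of the controls, and the fitted log2 fold change of -4.91 had an edgeR adjusted p of 0.462.

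Detection changed little. With at least 1 count in every Cu pool and 0 in all controls there were 20 gene models, and with at least 1 count in every control and 0 in all Cu pools there were 19. The first 20 had at most 7 counts summed over the Cu pools (median 4), and the median sum over controls of the 19 was 8. With a minimum of 3 counts per library both numbers were 0. Of all these models 1 passed the filter on low counts, v1g244734, with 0 counts in every Cu pool and 1, 4, 47 and 12 in controls 1 to 4, and it was not called (edgeR adjusted p = 0.124). Each of the 20 and of the 19 had counts in libraries of other metals.

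The direct contrasts asked where Cu differed from the other metals. They set Cu levels against those of another metal and not against controls. They share the Cu libraries with the comparison above, and the controls entered the same fit and so its scaling, filter and dispersion. Against Cd 352 genes were higher in Cu (2.16% of those tested) and 61 lower (0.375%), and against Zn 459 were higher (2.82%) and 128 lower (0.786%). Against Hg 711 were higher in Cu (4.37%) and 1606 lower (9.87%; edgeR). The 488 genes that rose and the 195 that fell against control were chosen for their values in the same Cu libraries. Nothing is therefore read from how many of them changed the same way against Cd and Zn, or from their medians there. Of the 488 genes that rose against control, 295 were also higher in Cu than in Cd, 346 higher than in Zn and 274 higher than in both. Of those 274, 207 were lower in Cu than in Hg, 62 were not called against Hg and 5 were higher in Cu. Of the 195 genes that fell, 35 were lower in Cu than in Cd, 56 lower than in Zn and 32 lower than in both. Of those 32, 14 were higher in Cu than in Hg, 17 were not called and 1 was lower in Cu. Median log2 differences for the genes that rose were 0.63 against Cd, 0.66 against Zn and -0.61 against Hg. For the genes that fell they were -0.43 against Cd, -0.44 against Zn and 0.04 against Hg. The medians of all tested genes were -0.03 against Cd, -0.02 against Zn and -0.003 against Hg.

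Copper stood apart from control and from all 3 other metals in 5 genes with a higher level (0.0307%) and 1 with a lower level (0.00614%). v1g56592 had the largest change. It had 102, 109 and 133 CPM in the Cu pools, against 32.7, 34.3, 72.1 and 50.5 CPM in controls 1 to 4, with control 3 nearest to Cu. The log2 fold change was 1.28 ± 0.24 (SE; edgeR adjusted p = 0.00746), and its means were 36.6 ± 11.5 CPM in Hg, 36.6 ± 2.84 CPM in Cd and 43.4 ± 1.49 CPM in Zn (SD, n = 3 each). In a fit of Cu and control alone the adjusted p was 0.073, and without the libraries on the positive side of the first component it was 0.131.

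v1g214761 had 873, 869 and 806 CPM in the Cu pools, against 443, 492, 573 and 457 CPM in controls 1 to 4. No library of another group reached the lowest Cu pool, and the highest was Zn 1 with 617 CPM. The log2 fold change was 0.79 ± 0.14 (SE; edgeR adjusted p = 0.00284). Without the libraries on the positive side of the first component it was 0.78 and no longer called (edgeR adjusted p = 0.0709). v1g242083 averaged 196 ± 26.4 CPM in Cu (SD, n = 3) and 115 ± 20.5 CPM in controls (SD, n = 4), and v1g248894 averaged 102 ± 17.9 CPM in Cu (SD, n = 3) and 59.5 ± 5.53 CPM in controls (SD, n = 4). Their log2 fold changes were 0.76 ± 0.13 and 0.78 ± 0.14 (SE; edgeR adjusted p = 0.00171 and 0.003). In both genes Cu 3 was the lowest Cu pool, at 165 and 81.8 CPM, and still lay above every control. The fifth gene was v1g241424, described above, whose Cu level exceeded Hg by a log2 difference of 1.18 ± 0.18, Cd by 1.08 ± 0.18 and Zn by 0.78 ± 0.18 (SE; edgeR adjusted p = 0.000208, 0.00199 and 0.0217).

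The gene below all other groups was v1g125609. It had 17.4, 17.5 and 18.4 CPM in the Cu pools, against 27.5, 28.3, 30.8 and 25.4 CPM in controls 1 to 4. The Cu pools lay close together and below every other library of the series. The log2 fold change was -0.65 ± 0.10 (SE; edgeR adjusted p = 0.00085), and the smallest difference was that from Cd (-0.47 ± 0.11 SE, adjusted p = 0.0248). Over omissions of each library in turn the number of genes above all groups ran from 4 to 7 and the number below from 0 to 2. The call of v1g125609 against control held in all 16 alternatives. Its place below every other group was less firm. With Cu 2, Cd 1, Cd 2 or Cd 3 left out singly, 0 genes lay below all groups, and likewise with no filter on low counts.

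**Figure D5:**
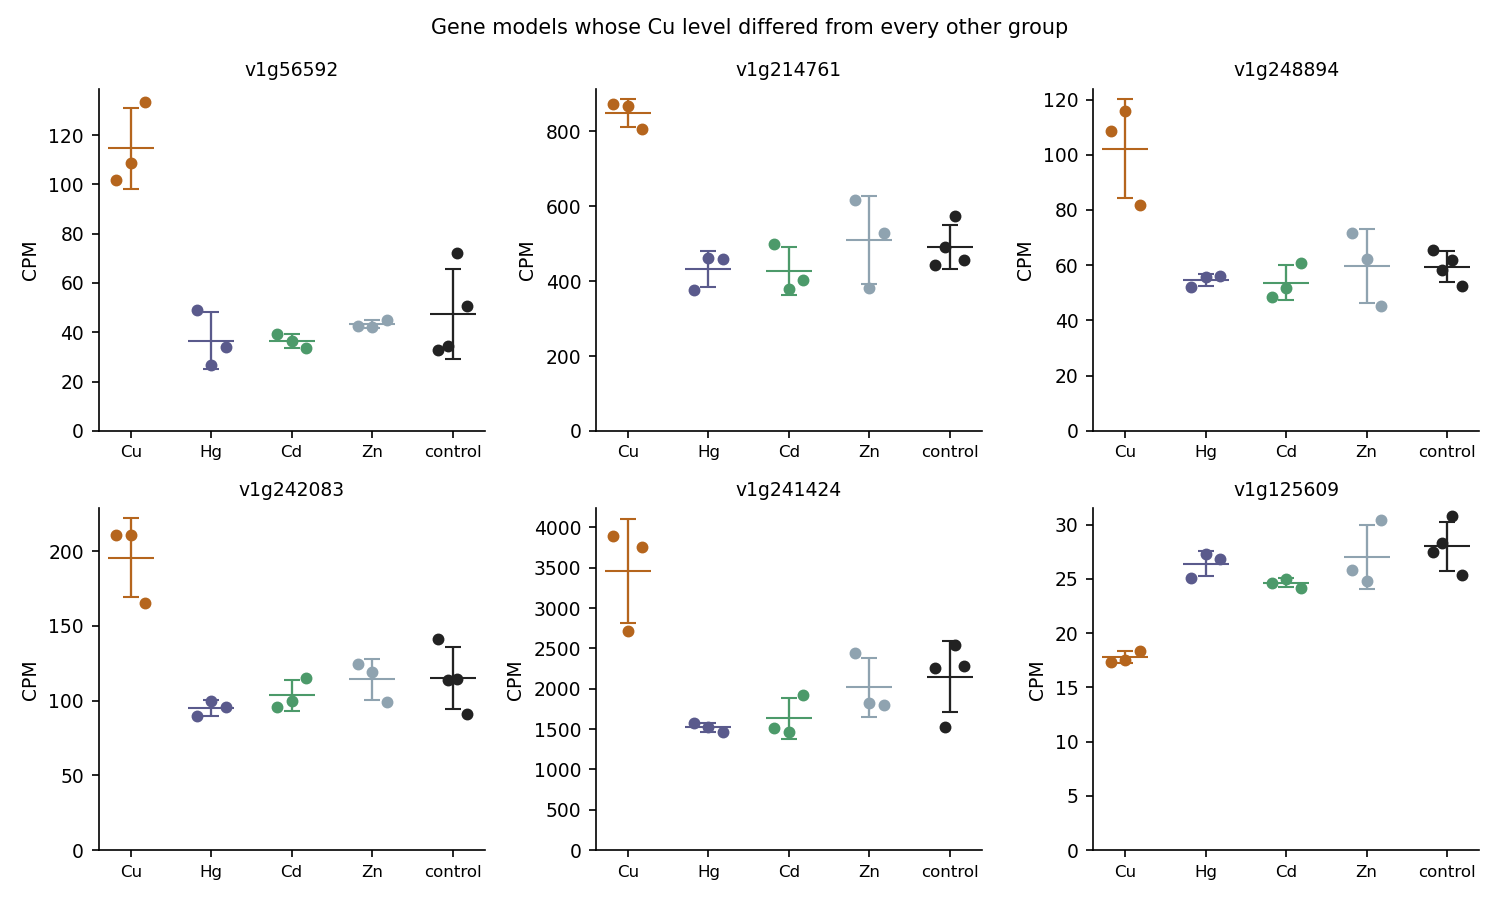
CPM in every library (points) of the 6 genes whose Cu level differed from control, Hg, Cd and Zn in all 4 tests, with mean and SD (bars). Cu is highest in the first 5 genes and lowest in v1g125609, at 17.4 to 18.4 CPM.

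In the authors' deposited table for Cu 280 genes passed an adjusted p of 0.05 upward and 41 downward. Of these, 253 of the higher genes (90.4%) and 33 of the lower (80.5%) were also called here, which is 51.8% of the 488 and 16.9% of the 195. The 27 higher and 8 lower genes called in the authors' deposited table alone were all tested here, and 24 and 8 of them had an unadjusted edgeR p under 0.05. For v1g239529 the authors' deposited table gives a fold of 11.98 with an adjusted p of 2.38e-61. For v1g241424 the authors' deposited table gives a fold of 1.62 with an adjusted p of 0.0669, and for v1g125609 a fold of 0.638 with 0.069. For v1g211167 and v1g241233, both among the genes that fell beyond 1.5-fold, the adjusted p in the authors' deposited table is 0.067 and 0.197. These 4 genes stand on the other side of the threshold there, and the other called genes named above pass it.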

How the data were processed

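RNA of whole anemones was sequenced from 16 libraries in 5 groups. Tri-reagent extracts went into TruSeq mRNA libraries, per the labels' protocols. STAR, Partek and DESeq are named in the submitters' processing notes. Versions, strand and build were not given in the sources used here. For each metal the authors deposited 1 table with raw counts per gene model, whole numbers that were not normalized, and control counts were the same in all 4. The deposited base means are a signal after size-factor scaling, the deposited fold change is their ratio, and deposited p-values accompany it. Some adjusted values deposited for Cd exceed 1, and that column was treated as a score and not used. From the deposited tables only the Cu fold changes and adjusted p-values were set beside results.

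Counts were fitted in R 4.3.3 with edgeR 4.0.16: default filterByExpr (16276 genes kept), TMM scaling, and 1 robust quasi-likelihood fit of all 16 libraries with a term per group. Cu was tested against control, Hg, Cd and Zn. Each SE was computed as the absolute log2 fold change over the root of its F statistic. Log2 CPM has a prior count of 2. Full separation and shares were computed from CPM and counts. The fit was tested on simulated data with known changes between Cu and control. It recovered 24.3% of 70 changes of 1.5-fold, 60.3% of 68 of 2-fold and 85.5% of 62 of 4-fold, and called 5 unchanged genes. Simulated counts were drawn independently for each gene, so they lacked the split of libraries seen in the first component. The shares recovered and the number of false calls need not hold for the real data. Many small changes can go uncalled even without such a split. The labels describe replicates as separate pools, so that p-values rest on pool-to-pool spread. Replicates differed by more than counting noise (chi-square per degree of freedom 5.34 to 15.4), so none was a copy.

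Named genes were those called with full separation and at least 1 CPM that had the largest CPM difference (2 each way), those called against every other group, and counts of 5 or fewer. The rule and lists were chosen with earlier results of these data known. Gene lists by function could not be used, since no identifier matched the reference (assembly jaNemVect1.1). Alternatives were DESeq2 1.42.0, median-ratio factors, no filter, a replicate block, the first principal component as a covariate, fits of the groups compared, omission of each library and, chosen after the data were seen, omission of the libraries that stand apart.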

Additional observations from a re-analysis of the deposited data

How the results depend on the processing

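Replicate numbers were not taken to pair the libraries. Deviations of Cu and control libraries with the same number had correlations of -0.08 to 0.06 across genes. The range was -0.02 to 0.24 for Cu and Hg, -0.19 to 0.20 for Cu and Cd and 0.07 to 0.26 for Cu and Zn. Over all 30 pairs with the same number it was -0.27 to 0.39, highest for Hg 3 and Zn 3. With the replicate block 337 genes rose and 74 fell, 325 and 66 of them shared with the 488 and 195. The number that fell in Cu was 119 with no filter on low counts, 352 with the first component as a covariate (all 195 among them) and 74 in a fit of Cu and control alone, and DESeq2 gave 594 that rose and 262 that fell. In settings chosen after the data were seen 304 rose and 26 fell with controls 1 and 2, 606 fell with controls 3 and 4, and 488 fell without the 6 libraries on the positive side of the first component. With the first component as a covariate 103 genes were lower in Cu than in Cd, 193 lower than in Zn and 8 above all groups. A fit of Cu and Cd alone gave 40 lower in Cu, and without a filter 0 genes lay below all groups. The test for a minimum change gave 33 genes in all at 2-fold and 89 at 1.5-fold. At 3 counts per library 0 and 0 models were seen in one group alone. With median-ratio factors the genes that fell took 0.582% of Cu counts, and 97.2% on average of genes called higher lay above all controls in the Cu pool left out. Leaving out 1 library gave 304 to 512 genes that rose and 52 to 296 that fell, 65 to 86 beyond 1.5-fold, 379 to 592 higher and 1150 to 1426 lower than in Hg, 227 to 321 and 25 to 66 against Cd, 288 to 379 and 50 to 86 against Zn, and 4 to 7 above and 0 to 2 below all groups. The causes were not tested. The called genes named here kept their sign in each setting that gave a value. DESeq2 gave no adjusted p for v1g211167, v1g241233 and v1g59063. The uncalled genes v1g205229, v1g218972, v1g206519 and v1g244734 were not followed through the settings. Depth limits genes of a few CPM, where 1 CPM is 5.52 to 7.64 counts per Cu or control library.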
